A study of Mus musculus with 6 samples.

Results

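Class switch recombination and somatic hypermutation both begin with activation-induced cytidine deaminase (AID), which turns cytosine into uracil in immunoglobulin genes of activated B cells. The 8 genes described here act after that step. *Ung* and *Apex1* remove the uracil and nick the backbone, *Msh6* and *Exo1* recognise the U:G mismatch and remove the DNA around it, and *Polh* refills the gap with errors. *Trp53bp1*, *Rif1* and *Mad2l2* protect the broken ends from resection, so that switch regions can be joined to each other. They were taken by gene symbol from the table of estimated counts, in which 8 of 8 were found among 24499 genes, and 8 of 8 passed the filter on low counts that left 13296 genes for testing. The gene of AID itself is not among the 8, and it was not analysed here.

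RNA-seq compared day 3 iGCBs, which are B cells driven to a germinal center-like state in culture, from 3 cKO and 3 control libraries. Naïve spleen B cells were grown for 3 days with 40LB feeders, which are BALB/c 3T3 fibroblasts made to express CD40L and BAFF and had been irradiated with 120 Gy, in medium with IL-4 at 1 ng/ml. YFP+ cells were then sorted. The cKO mice were homozygous for floxed *Eif3e* (*Eif3e* fl/fl) and carried *Cγ1*Cre as well as a *Rosa26-YFP* LSL reporter, on a C57BL/6J background. Their floxed *Eif3e* alleles are deleted, and the YFP reporter is switched on, only after Cre has been expressed with transcription of the Cγ1 gene segment, so deletion starts after activation. The labels call the other mice control, with cgWT in the library names, and do not spell out their genotype. For its spleen analyses the paper gives control mice as *Cγ1*Cre with the *Rosa26-YFP* LSL reporter. It does not state the control genotype for these libraries. As YFP+ cells were sorted from them as well, Cre and the reporter were shared by both groups. The ages of the mice are not given in the sources used here. The study describes these libraries as biological replicates, and the labels do not name the mouse behind each. In bulk RNA, fewer cells of a type and less RNA per cell cannot be told apart.

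Totals ranged from 39079582 to 45504570 counts per library, and the 8 genes held between 717 and 11127 counts each in every library. *Eif3e*, the deleted gene, was at 7868, 6738 and 6433 counts in cKO 1 to 3 and at 19147, 15750 and 16159 counts in control 1 to 3, a log2 change of -1.36 (SE 0.07, adjusted p = 6.71e-07 by edgeR's quasi-likelihood test). All 8 B cell markers listed were detected, with summed levels of 4803 to 4998 CPM in cKO and 4785 to 5092 CPM in control. CPM are counts scaled to the size of the library after TMM normalization. *Bcl6* averaged 83.4 CPM in cKO and 104 CPM in control, and *Fas* 92.3 and 69.5 CPM. Within the germinal center list *Gcsam* (log2 change -2.75), *Mybl1* (-0.93), *Bach2* (-0.42) and *Bcl6* (-0.32) fell past an adjusted p of 0.05. *Fas* (0.41) rose, and *S1pr2* (-0.27, adjusted p = 0.160 by edgeR) did not pass. The 6 germinal center markers summed to 364 to 415 CPM in cKO and 450 to 537 CPM in control, and the 6 plasma cell markers to 646 to 788 and 831 to 852 CPM. Within the plasma cell list *Jchain* (log2 change -4.00), *Prdm1* (-1.13) and *Xbp1* (-1.10) fell, while *Sdc1* (1.60) and *Irf4* (0.42) rose. The 12 feeder fibroblast markers overlapped in sum (102 to 128 CPM in cKO and 79.1 to 148 CPM in control), with *Lum* and *Postn* at 0 in every library. Among them *Fn1* rose, from 19.2 ± 4.84 to 40.3 ± 5.79 CPM (SD, n = 3, log2 change 1.07, adjusted p = 0.000651 by edgeR), and the other 8 tested did not pass. The 7 T cell markers in the table summed to 25.1 to 27.2 and 40.2 to 45.1 CPM, nearly all from *Lck* and *Cd5*, with *Cd3e* at 0. The 8 myeloid markers summed to 4.08 to 6.06 and 1.22 to 2.45 CPM, with *Cd14*, *S100a8* and *S100a9* at 0. The part of these differences in the values below was not tested.

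All 8 genes differed between cKO and control past an adjusted p of 0.05 over all genes tested. *Ung*, *Rif1*, *Mad2l2*, *Exo1*, *Apex1* and *Trp53bp1* rose, and *Msh6* and *Polh* fell. *Trp53bp1* did not pass under several alternatives, which are given with its values. So many genes moved in these cells that these counts need their background: 24.1% of all genes tested were higher and 24.5% were lower past the same threshold. With a fold change over 1.5 also required, *Ung* was called higher, against 10.4% of all genes, and *Msh6* and *Polh* lower, against 10.6%. When the change was instead tested against 1.5-fold itself (edgeR's glmTreat, an alternative chosen after seeing the data), 0 of the 8 passed, where 4.39% of all genes were higher and 4.36% lower. *Polh* (adjusted p = 0.104) and *Msh6* (adjusted p = 0.153) had an unadjusted p under 0.05 in that test, and *Ung* (adjusted p = 0.651) did not. The 3 genes thus differed from no change, and their true change was not shown to exceed 1.5-fold. In 8 of 8 genes there was no overlap between the libraries of cKO and those of control, which was also so for 58.7% of all genes tested. A single gene in 3 against 3 libraries cannot go below p = 0.1 in an exact two-sided permutation test, and each of the 8 gave that p. The median log2 change of the 8 was 0.35, where that of all genes tested was -0.004018.

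**Figure D1:**
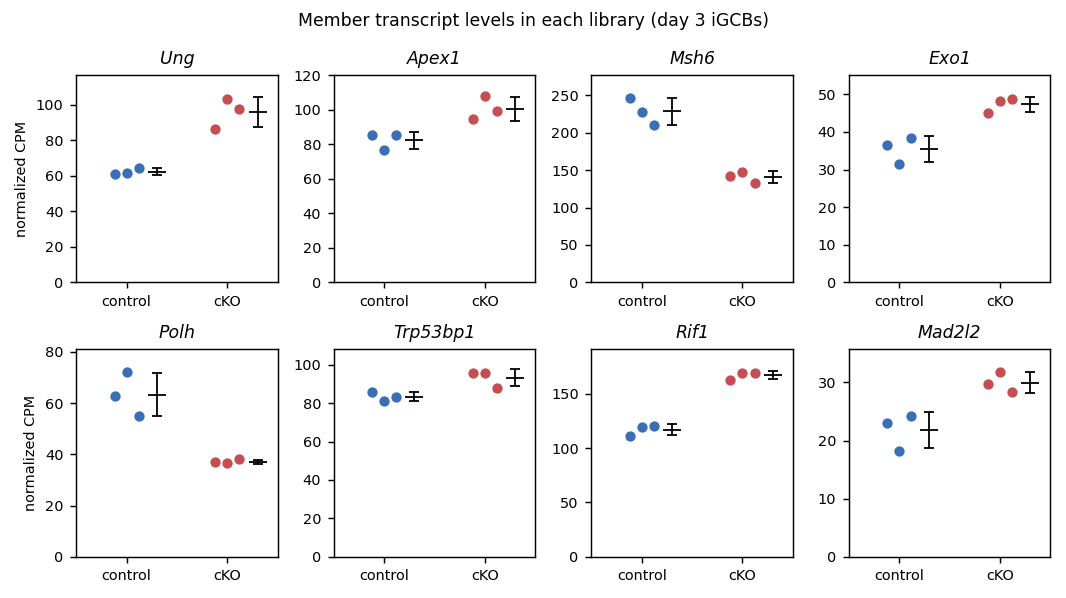
Level of each of the 8 genes in normalized CPM (vertical axes, each from 0) in the 3 control (blue) and 3 cKO (red) libraries, where each point is a library and the bars are mean ± SD (n = 3). No control library overlaps a cKO library in any of the panels, and *Msh6* and *Polh* are the panels with the lower cKO points.

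*Ung* encodes the main uracil DNA glycosylase, which cuts uracil out of DNA and so leaves an abasic site. It lies at chr5:114130386-114139323 (+) on GRCm38. Its level was 86.7, 103 and 97.6 CPM in cKO 1 to 3, and 61.3, 61.5 and 64.6 CPM in control 1 to 3. The lowest cKO library was thus above the highest control library, and the controls were closer to each other than the cKO libraries were. The means were 95.9 ± 8.44 and 62.5 ± 1.85 CPM (SD, n = 3), a log2 change of 0.62 (SE 0.07, adjusted p = 5.74e-05 by edgeR), or 153% of the control level. This was little above the fold cutoff, which is 0.585 on the log2 scale. Without cKO replicate 2 the log2 change was 0.56 and *Ung* was no longer called.

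The gene makes a pair of enzymes that differ at the N terminus, because the transcripts start at different places and use different start codons. NM_001040691 starts with the upstream exon (chr5:114130386-114130625) and encodes the nuclear form with 306 codons, and NM_011677 starts with the exon at chr5:114130926-114131513 and encodes the mitochondrial form with 295 codons. Both use the same 796 coding bases at the 3′ end. The first 60 coding bases of each, from the GENCODE transcripts matched to these RefSeq entries, show where the reads of the forms can differ, with the start codon in capitals.
Nuclear form: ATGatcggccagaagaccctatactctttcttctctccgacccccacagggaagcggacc
Mitochondrial form: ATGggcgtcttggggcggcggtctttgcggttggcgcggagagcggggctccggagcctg
The nuclear form carries a PCNA-binding motif within its first 20 codons and the mitochondrial form does not. Its estimated level was 40.9, 50.6 and 37.3 CPM in cKO and 28.6, 18.7 and 26.1 CPM in control, a log2 change of 0.81 (SE 0.20, adjusted p = 0.0314 over 18040 transcripts, of which 25.1% passed). The mitochondrial form was at 45.8, 52.6 and 60.6 CPM in cKO and 33.0, 42.8 and 38.5 CPM in control (log2 change 0.48, SE 0.14, adjusted p = 0.0589). The groups did not overlap for either form, as was also so for 58.7% of all genes tested. That share was not computed for transcripts. The nuclear form took 44.8% ± 5.83 (SD, n = 3) of the *Ung* counts in cKO and 39.1% ± 8.11 in control. A difference of share was not called by edgeR's diffSpliceDGE (adjusted p = 1), where 0.615% of 7646 tested transcripts were. That does not show the shares to be alike. The log2 difference of the nuclear form's share ranged from 0.05 to 0.33 over the alternatives. Counts are divided between the forms by the authors' estimation, so a share is less certain than the gene's total.

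*Apex1* encodes the main abasic site endonuclease (APE1), which nicks the DNA where uracil has been removed. The gene is at chr14:50924968-50927139 (+). Its levels were 94.4, 108 and 99.0 CPM in cKO and 85.1, 76.5 and 85.0 CPM in control. All cKO libraries were above the controls, with cKO 2 the highest and control 2 the lowest. The means were 100.4 ± 6.78 and 82.2 ± 4.92 CPM (SD, n = 3), with a log2 change of 0.29 (SE 0.07, adjusted p = 0.00537 by edgeR), below the fold cutoff. Exons of *Pip4p1*, listed in the count table under its older symbol *Tmem55b*, cover 877 of the 1422 exonic bases of *Apex1* on the opposite strand. *Tmem55b* averaged 50.2 ± 7.87 CPM in the cKO and 55.8 ± 5.01 CPM in the control libraries (SD, n = 3; log2 change -0.15, adjusted p = 0.288 by edgeR). The strand setting of the counting is not given in the sources used here, so reads from these genes may not be told apart.

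*Msh6* encodes a mismatch recognition protein that binds U:G and other single-base mismatches. The gene is at chr17:87975062-87990892 (+). It was at 142, 147 and 132 CPM in cKO 1 to 3 and at 247, 228 and 210.4 CPM in control 1 to 3. The highest cKO library was well under the lowest control. The means were 141 ± 7.69 and 228 ± 18.1 CPM (SD, n = 3), so that cKO held 61.7% of the control level (log2 change -0.70, SE 0.07, adjusted p = 2.17e-05 by edgeR). With any library left out the log2 change stayed between -0.75 and -0.64. Exons of *Fbxo11* overlap 34 of the 4346 exonic bases of *Msh6* on the opposite strand. *Fbxo11* fell as well, from 158 ± 22.7 to 102 ± 10.1 CPM (log2 change -0.64, adjusted p = 0.000553 by edgeR).

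*Exo1*, at chr1:175880581-175913489 (+), encodes the 5′ to 3′ exonuclease that follows mismatch recognition and removes the strand with the uracil. Its levels were 45.1, 48.1 and 48.8 CPM in cKO and 36.4, 31.5 and 38.2 CPM in control. In contrast to *Msh6*, every cKO library was above every control. The means were 47.3 ± 1.98 and 35.4 ± 3.48 CPM (SD, n = 3), a log2 change of 0.42 (SE 0.09, adjusted p = 0.00287 by edgeR).

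*Polh* encodes DNA polymerase η, the translesion enzyme that puts mutations at A:T pairs during hypermutation. It is at chr17:46171355-46202645 (-). The cKO libraries were at 37.1, 36.5 and 38.0 CPM, and the controls at 62.9, 72.0 and 55.1 CPM. The cKO values lay close together and under all controls, which were spread more widely. The means were 37.2 ± 0.779 and 63.3 ± 8.48 CPM (SD, n = 3), so that cKO held 58.7% of the control level (log2 change -0.77, SE 0.09, adjusted p = 0.000102 by edgeR). Leaving out a library kept the log2 change between -0.86 and -0.67. It was the lowest of the 8 log2 changes, and it lay within its own SE of that of *Msh6*.

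*Trp53bp1* encodes 53BP1, which binds chromatin at breaks and holds off resection. It lies at chr2:121193281-121271407 (-). Its levels were 95.7, 95.8 and 88.2 CPM in cKO and 85.8, 80.9 and 83.3 CPM in control. The groups did not overlap, but cKO 3 and control 1 were only a few CPM apart. The means were 93.2 ± 4.39 and 83.3 ± 2.42 CPM (SD, n = 3), a log2 change of 0.16 (SE 0.06, adjusted p = 0.0368 by edgeR). This was the smallest of the 8 changes, and the adjusted p was above the threshold when any of 5 libraries was left out. It was 0.0979 without cKO 1, 0.134 without cKO 2, 0.0651 without control 1, 0.120 without control 2 and 0.0635 without control 3. It was 0.0527 without the filter on low counts, 0.0638 with *Xist* as a covariate and 0.0609 with the replicate number as a block. Exons of *Tubgcp4* on the opposite strand cover 2130 of the 14164 exonic bases of *Trp53bp1*. *Tubgcp4* averaged 30.4 ± 3.02 CPM in the cKO and 33.9 ± 3.44 CPM in the control libraries (adjusted p = 0.242 by edgeR).

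Counts of *Trp53bp1* were divided between a transcript with 28 exons (NM_013735) and one with 27 exons (NM_001290830), which encode 1969 and 1919 codons. The 27-exon form took 47.9%, 36.9% and 41.3% of the gene's counts in cKO and 41.1%, 18.8% and 18.2% in control. Control 1 was thus within the cKO range and the other two controls were below it. The share was 42.0% ± 5.54 in cKO and 26.0% ± 13.1 in control (SD, n = 3), and the difference was not called (adjusted p = 1 by diffSpliceDGE, exact permutation p = 0.2, two-sided), which again does not show them to be alike. Of the remaining members, 5 had counts for 1 transcript alone. *Mad2l2* had a further transcript with 12 counts in cKO 2 and 0 elsewhere.

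**Figure D2:**
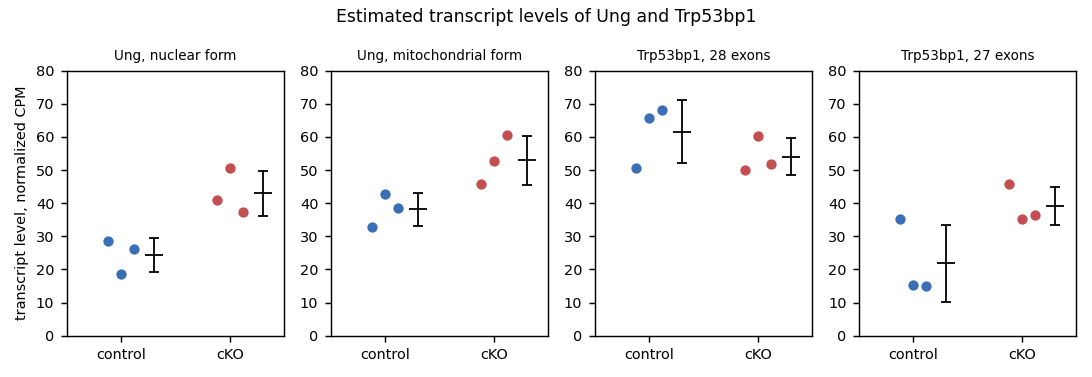
Estimated level of the *Ung* and *Trp53bp1* transcripts in normalized CPM (vertical axes from 0) in 3 control (blue) and 3 cKO (red) libraries, with mean ± SD beside the points (n = 3). Both *Ung* forms are higher in every cKO library, while the *Trp53bp1* 27-exon form spreads from 15.1 to 35.4 CPM over the controls.

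*Rif1* encodes the protein that 53BP1 recruits to breaks, at chr2:52072832-52122383 (+). It was at 163, 169 and 169 CPM in cKO and at 111, 119.7 and 120.4 CPM in control. The spread within each group was small beside the gap between them. The means were 167 ± 3.70 and 117 ± 4.99 CPM (SD, n = 3), or 143% of the control level (log2 change 0.51, SE 0.05, adjusted p = 3.16e-05 by edgeR). The log2 change was between 0.48 and 0.54 with any library left out and did not reach the fold cutoff.

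*Mad2l2* encodes REV7, a subunit of shieldin, which works downstream of 53BP1 and RIF1, and of DNA polymerase ζ. It is at chr4:148130384-148145699 (+). Its levels were 29.7, 31.9 and 28.4 CPM in cKO and 23.0, 18.2 and 24.2 CPM in control. Control 2 was the lowest library and cKO 2 the highest. The means were 30.0 ± 1.74 and 21.8 ± 3.14 CPM (SD, n = 3), a log2 change of 0.46 (SE 0.11, adjusted p = 0.00726 by edgeR).

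**Figure D3:**
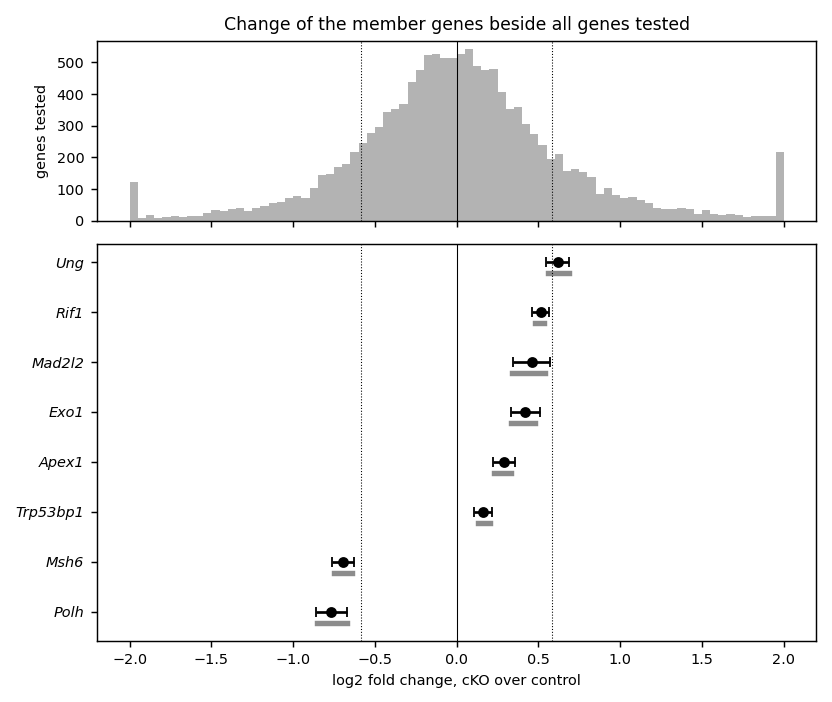
Log2 fold change of cKO over control (horizontal axis) for the 8 genes in the lower panel, with edgeR's standard error (black bars) and the range with each library left out in turn (gray bars), and the same quantity for 13296 genes tested as a histogram above, where genes beyond -2 or 2 are stacked in the outermost bins. The dotted lines mark 1.5-fold, which *Ung* passes and its gray bar crosses, while *Msh6* and *Polh* lie beyond it with their whole gray bars.

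Ordered by step, the members of the uracil branch (*Ung*, *Apex1*) and of end protection (*Trp53bp1*, *Rif1*, *Mad2l2*) were higher. Of the mismatch members, *Exo1* was higher and *Msh6* and *Polh* were lower. *Trp53bp1* did not pass under several alternatives. Over all genes tested, 24.1% were higher and 24.5% lower past the adjusted p. In the wider list of 11 uracil and base excision repair genes, described below, 2 were higher and 5 lower. The summed level of the 8 genes was 694 to 740 CPM in cKO and 681 to 712 CPM in control, so the sums overlapped although no single gene did.

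To compare genes with each other, CPM were divided by the length of the main transcript in kb. In control the order was *Apex1* (66.3 ± 3.97 CPM per kb, mean ± SD, n = 3, as for the values that follow), *Msh6* (53.7 ± 4.25), *Ung* (29.3 ± 0.865), *Polh* (19.6 ± 2.62), *Mad2l2* (14.2 ± 2.04), *Rif1* (13.8 ± 0.587), *Trp53bp1* (8.66 ± 0.252) and *Exo1* (4.54 ± 0.446). *Mad2l2* and *Rif1* overlapped there and could not be ordered. In cKO, *Apex1* was again at the top, at 81.0 ± 5.47 CPM per kb. *Ung*, at 44.9 ± 3.95, was above *Msh6*, at 33.1 ± 1.81, which was the reverse of their order in control. *Rif1* (19.7 ± 0.435) and *Mad2l2* (19.5 ± 1.13), which again overlapped, were above *Polh* (11.5 ± 0.241), another reversal. *Trp53bp1* (9.69 ± 0.457) and *Exo1* (6.07 ± 0.255) came last in both groups. Length-scaled levels rest on annotated lengths and not on the cells' own transcript ends.

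Promoter windows of 250 bases before and 50 after the start were available from RefSeq (GRCm38.p6) for 6 of the 8 genes, with a pair of windows for *Mad2l2*. *Exo1* and *Rif1* had no entry. Stretches of 120 bases are shown for the 3 genes past both thresholds, since they moved in opposite directions. Each ends before the most upstream gene start annotated there in GENCODE or RefSeq, which is 69 bases before the window's start for *Ung*, 4 bases for *Polh* and at the start for *Msh6*. The *Ung* window serves the nuclear form, and the start of the mitochondrial form lies downstream of it. The stretches are printed with GC boxes (GGGCGG or CCGCCC) and, in *Msh6*, the CCAAT box (ATTGG on this strand) in capitals.
Ung, chr5:114130246-114130365 (+): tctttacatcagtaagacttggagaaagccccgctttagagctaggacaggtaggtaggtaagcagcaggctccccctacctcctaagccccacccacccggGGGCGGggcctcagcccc
Msh6, chr17:87974930-87975049 (+): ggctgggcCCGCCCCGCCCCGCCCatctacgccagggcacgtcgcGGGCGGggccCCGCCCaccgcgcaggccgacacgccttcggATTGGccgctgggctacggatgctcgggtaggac
Polh, chr17:46202646-46202765 (-): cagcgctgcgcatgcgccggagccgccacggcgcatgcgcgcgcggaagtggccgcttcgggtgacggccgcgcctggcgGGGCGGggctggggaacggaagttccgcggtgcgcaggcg
A GC box was found on either strand in every window of the 6 genes, and in 61.6% of 12812 windows of genes tested. *Msh6* held 5 of them, of which 3 in a row share their end bases, while *Ung* held 2, of which the one nearer the start is downstream of the stretch shown, and *Polh* 1. The E2F word (TTTCCCGC or TTTGGCGC) was found only in *Msh6*, at 16 bases after the start, and in 2.91% of the windows of genes tested. CCAAT was in *Apex1*, *Msh6* and the downstream *Mad2l2* window (37.8% of windows), and the E-box CACGTG in *Apex1* alone, at 3 places (9.84%). The CRE word TGACGTCA (3.04%) and the CHR word TTTGAA (12.1%) were in none of the windows. GC content was 71.7% in the window of *Msh6* and 72% in that of *Polh*. Among the genes that rose it was 64.7% in *Ung*, 63.3% in *Apex1*, 57.3% in *Trp53bp1*, and 79% and 58.7% in the windows of *Mad2l2*, so it did not separate the directions. The median of genes tested was 60.7%. A match of letters is a description and not a site in use.

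The related genes were described from 6 lists, which together held 87 gene symbols (*Shld2* under its older symbol as well), 82 of them tested. Of these, 23 were higher and 19 lower past the adjusted p (51.2%, where 48.6% of all genes were), and 7 were called higher and 4 lower (13.4%, where 21% of all genes were). Their median log2 change was 0.03.

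In the list of uracil and base excision repair, 2 of 11 genes were higher and 5 lower, with a median log2 change of -0.37. Of the genes for other uracil glycosylases, none passed in the direction of *Ung*. *Mbd4* fell from 65.3 ± 1.64 to 28.5 ± 3.34 CPM (log2 change -1.19, adjusted p = 5.56e-06 by edgeR) and *Tdg* from 106 ± 21.1 to 78.1 ± 8.42 CPM (-0.44, adjusted p = 0.0188). *Smug1* stood at 3.63 ± 0.240 CPM (cKO) and 4.85 ± 1.52 CPM (control) (-0.42, adjusted p = 0.174). *Hmces*, which shields abasic sites, fell from 8.23 ± 0.656 to 2.52 ± 0.999 CPM (-1.71, adjusted p = 0.000304). *Apex2*, the lesser relative of *Apex1*, fell (-0.37), as did the repair scaffold *Xrcc1* (-0.53), while *Lig3*, the ligase that XRCC1 binds, rose (0.59), and *Parp1* rose slightly (0.12).

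In the list of mismatch repair and clamp genes, 8 of 10 did not pass. *Pms1*, which encodes a MutL-family protein, was higher (log2 change 0.63, adjusted p = 0.00158 by edgeR). *Pms2* (-0.19, adjusted p = 0.0902) and the sliding clamp *Pcna* (-0.03, adjusted p = 0.746) did not pass. The median of the list was -0.03.

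Translesion synthesis genes had 5 of 12 higher and 2 lower, none past the fold cutoff, with a median log2 change of 0.20. *Usp1* (0.30) and *Wdr48* (0.30), which form the enzyme that takes ubiquitin off PCNA, *Polq* (0.26) and *Pold1* (0.22) rose. *Poli*, the closest relative of *Polh*, fell (-0.31), as did *Ube2b* (-0.28). *Rev3l* (-0.02, adjusted p = 0.856 by edgeR), the catalytic subunit that REV7 joins in polymerase ζ, and *Rev1* (0.05, adjusted p = 0.577) did not pass, and neither did *Rad18* (0.18, adjusted p = 0.0831), the ligase that modifies PCNA.

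In the list of break signalling and the 53BP1 pathway, 8 of 21 tested genes were higher and 3 lower, with a median log2 change of 0.06. *Dynll1*, whose product binds 53BP1, rose from 113 ± 2.46 to 244 ± 13.2 CPM (log2 change 1.12, adjusted p = 6.85e-07 by edgeR). *Pagr1a* (0.86) and *Paxip1* (0.26), which encode partners in the PTIP complex, *Ercc6l2* (0.47) and *Trip13* (0.42), the ATPase that takes REV7 complexes apart, rose as well. *H2afx*, the histone that is phosphorylated around breaks, fell from 302 ± 3.80 to 156 ± 4.30 CPM (-0.96, adjusted p = 6.57e-07). *Rbbp8* (-0.36), which encodes the resection factor CtIP, and *Ten1* (-0.33) fell. *Mdc1* (-0.16, adjusted p = 0.0743), *Rnf168* (-0.09, adjusted p = 0.427) and *Fam35a*, the older symbol of the shieldin gene *Shld2* (0.11, adjusted p = 0.439), did not pass. *Shld1*, *Shld3* and *Stn1* were not analysed here.

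Classical end joining, which seals the breaks, had 0 of 7 tested genes higher and 3 lower, with a median log2 change of -0.30. *Dclre1c*, the nuclease Artemis, fell from 33.6 ± 2.84 to 21.3 ± 0.702 CPM (log2 change -0.66, adjusted p = 0.000201 by edgeR), and *Lig4* (-0.46) and *Xrcc5* (-0.39, which encodes Ku80) fell.

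Among 21 genes for proteins reported to bind, carry or guide AID, 7 were higher and 5 lower, with a median log2 change of 0.06. *Psme3*, a proteasome activator, rose from 197 ± 12.1 to 349 ± 29.5 CPM (log2 change 0.83, adjusted p = 1.01e-05 by edgeR). *Dnaja1* (0.76) and *Hsp90aa1* (0.49), which encode chaperones of AID in the cytoplasm, and *Xpo1* (0.70), which encodes its nuclear exporter, rose. *Ywhaz* (-0.41), which encodes a 14-3-3 adaptor, and *Ctnnbl1* (-0.34), *Exosc10* (-0.31) and *Ptbp2* (-0.27), which encode RNA-processing factors, fell. The immunoglobulin heavy constant genes were not analysed here.

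Several members are used in DNA replication, so S phase genes were set beside them. Of 24, 6 were higher and 4 lower, and their summed level was 5245 to 5624 CPM in cKO and 5184 to 5619 CPM in control, so the groups overlapped. *Cdt1*, which licenses origins, was the S phase gene past the fold cutoff, and fell from 198 ± 4.52 to 110 ± 6.77 CPM (log2 change -0.86, adjusted p = 2.90e-06 by edgeR).

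**Figure D4:**
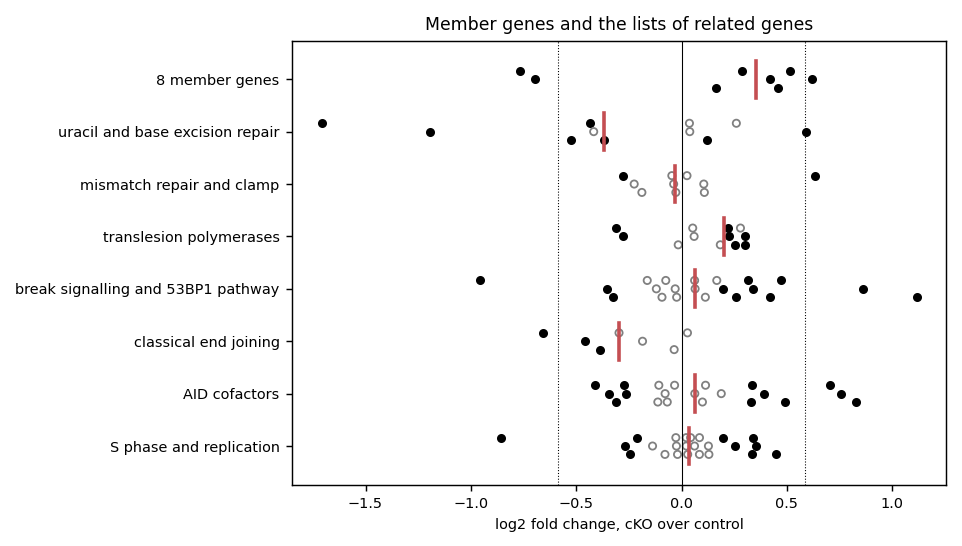
Log2 fold change of cKO over control (horizontal axis) for the 8 genes and for 7 lists of related genes (rows), where each point is a gene, filled when its adjusted p by edgeR was under 0.05 and open otherwise, and the red line is the median of the row. The row medians run from -0.37 in base excision repair to 0.35 in the 8 genes, and the dotted lines mark 1.5-fold.

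Genes whose log2 CPM followed each member most closely over the 6 libraries were picked from 8513 genes with a mean of at least 10 CPM by Pearson's r. The nearest were *Rbm17* to *Ung* (r = 0.999), *Pgam5* to *Apex1* (0.998), *Kpna2* to *Msh6* (0.998), *Llph* to *Exo1* (0.995), *Gas2l3* to *Polh* (1.00), *Kpna3* to *Trp53bp1* (0.996), *Lins1* to *Rif1* (0.999) and *Brix1* to *Mad2l2* (0.997). The 6 points fall into the groups compared, so that r mostly follows the difference between the groups, and values near 1 are easily reached among so many genes.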

How the data were processed

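PolyA RNA of YFP+ day 3 iGCBs was sequenced from 3 cKO and 3 control samples, grouped by their labels. Reads were trimmed and then taken through HISAT2 (mm10) and StringTie by the authors, whose prepDE step yields estimated counts for genes and RefSeq transcripts. These expected counts were deposited as whole numbers that are not normalized. Tool versions and the strand and read length settings are not given in the sources used here. At the totals found, 3 counts equal 0.0659 to 0.0768 CPM, which covers counting error only.

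Genes were kept by filterByExpr (minimum count of 10), scaled by TMM and tested in R 4.3.3 with the quasi-likelihood test of edgeR 4.0.16 without covariates, with Benjamini-Hochberg adjustment over all 13296 genes. Genes with an adjusted p below 0.05 and a change over 1.5-fold were called. DESeq2 1.42.0, which the authors used, was an alternative, as were other scalings, filters, a replicate block, *Xist* as a covariate (the sexes of the mice are not in the labels) and each library left out. Transcript shares were tested with diffSpliceDGE on the deposited transcript counts. Gene rows equalled the sum of their transcripts for 8 of 8 members. RefSeq transcripts were matched to genes and lengths with GRCm38.p6 and GENCODE M21, the build of mm10.

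The quasi-likelihood, DESeq2 and diffSpliceDGE fits were first run on simulated counts whose changes were known. At the spread of these transcript counts diffSpliceDGE missed most of the known switches, so a share that was not called says little.

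The members and the lists were chosen with earlier results of these data known. Besides the 8 members, the genes named are *Eif3e*, direct partners of the members (some of which are not reported here), and up to 4 genes with the largest and 4 with the smallest log2 change past the adjusted p in each list, and the nearest genes by correlation. *Tmem55b*, *Fbxo11* and *Tubgcp4* fall outside this rule and are named because they overlap members. Beyond the rule, the germinal center genes, *Fn1*, the plasma cell genes and markers at 0 describe the cells.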

Additional observations from a re-analysis of the deposited data

How the results depend on the processing

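Of 120 refits of the 8 members, 112 kept the direction and the side of the adjusted p threshold, 8 kept the direction only and 0 turned it. The 8 were all *Trp53bp1*: without the filter on low counts (adjusted p = 0.0527 by edgeR), with *Xist* as a covariate (0.0638), with the replicate block (0.0609) and in 5 of the 6 fits without a library (up to 0.134). *Msh6* and *Polh* were called lower in each of the 15 alternatives of the test against no change. Tested against 1.5-fold itself, which was chosen for the members after seeing the data, 0 members were called higher and 0 lower. The number of members called higher was 1, and 0 to 1 with a library left out, as *Ung* fell under the fold cutoff without cKO replicate 2.

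Over all genes, 1378 were called higher and 1415 lower. These counts were 584 and 580 when the change was tested against 1.5-fold itself, 3204 and 3264 with no fold cutoff, and 1212 to 1433 and 1313 to 1450 with a library left out. Same-numbered cKO and control libraries deviated together with correlations of 0.00851, 0.0839 and 0.133. For controls 2 and 3 the same-numbered cKO library gave the highest correlation, while control 1 correlated better with cKO 2 (0.103) than with cKO 1. The numbers were not taken to pair the samples, but a pairing is not excluded. The paper used paired t tests for the proliferation, death and surface proteins of such cultures. The replicate block gave 2735 calls, of which 2658 were among the 2793 called without it. No library total limited the members, whose lowest count was 717. Strand, read length setting and the division of counts between transcripts limit *Apex1*, *Trp53bp1* and *Ung*.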
